A study of Homo sapiens with 5 samples.

Results

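The genes described here encode the proteins of the mitochondrial ribosome, and they were chosen by symbol alone: MRPL or MRPS followed by a number and at most 1 letter from A to D. Of the 26506 gene symbols in the deposited tables, 77 matched, the same 77 in both tables, with 48 named for the large subunit (MRPL) and 29 for the small subunit (MRPS). The mitochondrial ribosome stands in the organelle's matrix, bound to the inner membrane, and makes the core subunits of the respiratory chain and of ATP synthase that mitochondrial DNA encodes. Its RNAs come from mitochondrial DNA, whereas all of its proteins are encoded in the nucleus, made in the cytosol and imported. Compared with its bacterial relative it has lost RNA and gained proteins: by knowledge of its structure, 48 of the 77 have a bacterial counterpart and 28 are mitochondrial additions, while MRPS36 keeps its symbol but is no part of the ribosome.

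The RNA is from 22Rv1, a cell line established from a human prostate carcinoma and grown here in medium with 10% serum, and was collected 72 hours after lentivirus was added. The 5 groups were Vector-1 and Vector-2 (both labelled control), ESM1 (virus carrying ESM1, a gene for a secreted proteoglycan also called endocan), and the tagged forms ESM1-NLS and ESM1-NES, letters that usually stand for nuclear localisation and nuclear export signals but that the labels do not spell out. Vector-1 is the control of ESM1, and Vector-2 is the control of both tagged forms, so the comparisons of the tagged forms share a library. Every group has 1 library, so no spread between cultures exists, no test across samples was made, and every difference below is one between 2 libraries. The question put by the design is how each form of ESM1 differs from its vector and how the forms with different tags differ from each other.

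The libraries held between 14105000 reads (ESM1, estimated from the values) and 24322216 reads (Vector-2). ESM1 itself was listed at 0 in both vectors and at 2437 FPKM (fragments scaled to transcript length and library depth) in ESM1, 2627 in ESM1-NLS and 3431 in ESM1-NES. All 7 markers of prostate luminal epithelium were at 1 FPKM or more in every library, and 5 markers of endothelium summed to at most 0.09 FPKM, 5 of leukocytes to at most 3.10 and 6 of fibroblasts to at most 4.70. In bulk RNA, less RNA per cell cannot be told apart from fewer cells with that RNA. All 77 members passed the minimum of 1 FPKM, as a mean of the 2 libraries compared, in every comparison.

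Mitochondrial ribosomal protein genes were well expressed. Their median was 53.6 FPKM in Vector-1, 53.9 in ESM1, 54.6 in Vector-2, and 51.8 in ESM1-NLS and 61.6 in ESM1-NES, where the median over all genes at 1 FPKM or more lay between 10.8 and 11.6. In each library 56 to 58 of the 77 lay within 2-fold of their own median, a share that was not computed for other genes. Together they took 0.543% of reads in Vector-1 (95% Wilson interval 0.539 to 0.546), 0.554% in ESM1 (0.551 to 0.558), 0.566% in Vector-2 (0.563 to 0.569), 0.543% in ESM1-NLS (0.540 to 0.546) and 0.609% in ESM1-NES (0.606 to 0.613). These intervals, like all intervals here, cover counting error only, and those of Vector-1 and ESM1 rest on estimated reads. The share was highest in ESM1-NES and lowest in Vector-1 and ESM1-NLS. The large and small subunits were at the same level, the ratio of their medians being 0.995, 0.997, 1.07, 0.997 and 1.04 in the 5 libraries in the order just given.

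MRPL51, a mitochondrial addition to the large subunit, was the highest member in every library, at 259 FPKM in Vector-1, 255 in ESM1, 252 in Vector-2, and 229 in ESM1-NLS and 293 in ESM1-NES. It was followed by mean level by MRPL24, MRPS35, MRPL33, MRPS33 and MRPS34, and these 6 genes together took 19.4% to 21.1% of the members' summed FPKM. MRPL24, of a family that in bacteria helps to start the folding of large-subunit RNA, was at 141, 139, 169, 173 and 213 FPKM in the same order. MRPS35, a small-subunit addition, had the reverse pattern between the tables, with 170.3 and 169 FPKM in the first and 129, 120.4 and 120.8 in the second. The tables were normalised separately, so a step between them cannot be told apart from their scaling. At the other end, MRPL22, whose bacterial relative lines the tunnel through which the new protein leaves, was the lowest member in every library, at 8.14, 8.24, 6.55, 5.97 and 6.05 FPKM. The highest member was 31.0 to 48.5 times the lowest. The next lowest by mean were MRPS25, MRPL19, MRPS31, MRPL30 and MRPL57, all between 12.9 and 23.2 FPKM in every library.

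**Figure D1:**
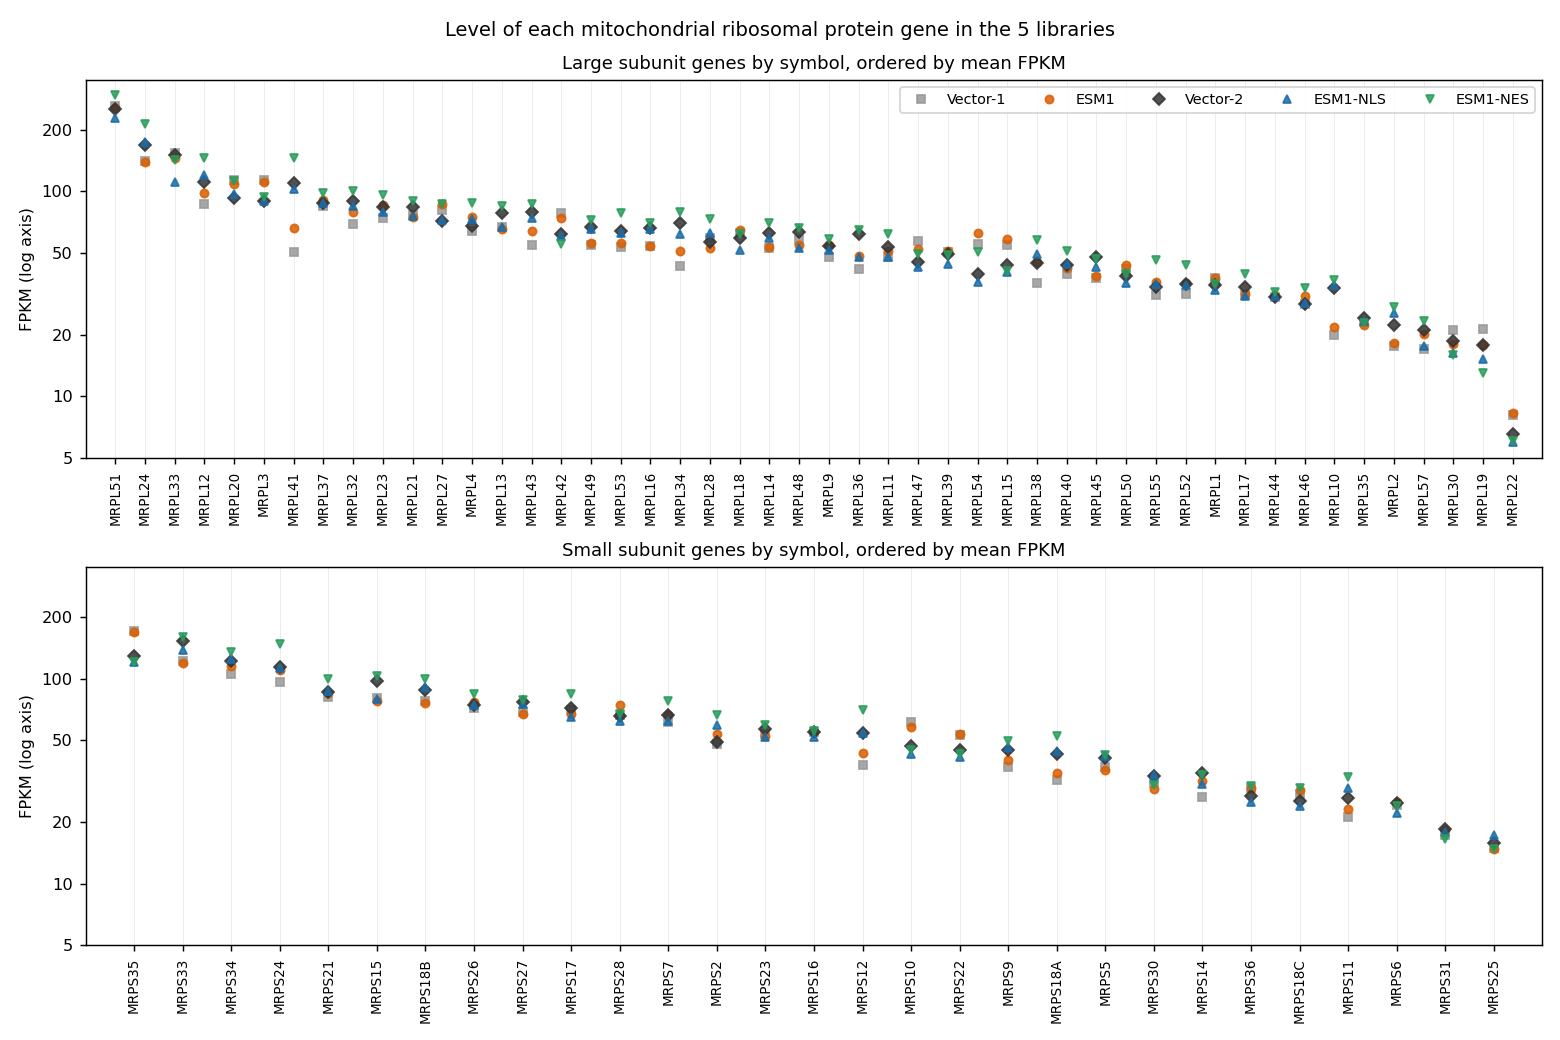
FPKM (vertical log axis) of each of the 48 large-subunit genes (upper panel) and 29 small-subunit genes (lower panel), ordered by mean level, with 1 point per library. Points of 1 gene lie close together compared with the distance between genes: MRPL51 is at 229 to 293 FPKM, MRPL22 at 5.97 to 8.24, and MRPL41 has the widest spread.

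The order of the members was nearly the same in all libraries. Across the 77 genes, Spearman's rho between libraries of 1 table ran from 0.983 to 0.989, and between tables from 0.899 (Vector-1 with ESM1-NES) to 0.949 (ESM1 with Vector-2). These points share their gene lengths and base composition, so the values describe the libraries and carry no p. The ratio of a gene's highest to its lowest library had a median of 1.31. It was smallest for MRPL44, a relative of RNase III in the large subunit, at 1.06, and largest for MRPL41, a large-subunit addition, at 2.89. MRPL41 stood at 50.5 FPKM in Vector-1, 66.5 in ESM1, 109.8 in Vector-2, and 102.7 in ESM1-NLS and 146 in ESM1-NES. Its lowest and highest library are thus in different tables, which were normalised separately. Within a table its ratios were 1.32 for ESM1 over Vector-1, 1.33 for ESM1-NES over Vector-2 and 0.704 for ESM1-NLS over ESM1-NES.

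Promoter windows from RefSeq (build GRCh38.p14, 250 bases before to 50 after each start) matched 68 of the 77 members. Genes of mitochondrial proteins are known targets of the ETS factor GABP, of NRF1 and of YY1. The windows were searched on both strands for CCGGAAG, the core bound by ETS factors, for GCATGCGC, read by NRF1, and for AAGATGGC, read by YY1. General promoter elements were searched as well. The SP-family motif was searched as GGGCGG. The E-box was searched as CACGTG, a palindrome. The NF-Y motif was searched as CCAAT. The TATA box was searched as TATAAA. None of these motifs lies inside another. The ETS motif was found in 28 of 68 member windows (41.2%), in 20.6% of 9029 windows of genes at 1 FPKM or more in every library and in 10.7% of all 27305 windows. The YY1 motif was found in 20 member windows (29.4%), in 5.86% of expressed genes and in 3.03% of all. In 5 of those 20 windows a copy lay before the start, and the others held it only after the start or across it. The NRF1 motif was in 6 member windows (8.82%, against 5.87% of expressed genes), and 41 of the 68 windows held at least 1 of these 3 motifs. The other motifs were less frequent in member windows than among expressed genes: the SP-family motif in 60.3% against 71.6%, the NF-Y motif in 29.4% against 37.6%, the E-box in 8.82% against 10.5% and the TATA box in 2.94% against 4.88%. A match describes the letters of a window and is no evidence of binding.

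The 120 bases before the start are shown, 5′ to 3′ on the strand of the gene, for 6 members that the results below turn on, with motif letters in capitals. MRPL33 (chr2:27771599-27771718, plus strand) was the lowest member of ESM1-NLS against Vector-2 and holds the ETS motif next to its start. MRPL19 (chr2:75646663-75646782, plus strand) was the lowest member in both other comparisons with a vector and holds no motif of the list in this stretch.
MRPL33: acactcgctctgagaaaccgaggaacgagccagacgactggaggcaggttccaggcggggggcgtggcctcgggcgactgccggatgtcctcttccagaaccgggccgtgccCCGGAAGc
MRPL19: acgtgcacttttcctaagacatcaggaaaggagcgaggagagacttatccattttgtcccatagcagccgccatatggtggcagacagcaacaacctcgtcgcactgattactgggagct
MRPL28 (chr16:370539-370658, minus strand) and MRPL11 (chr11:66438849-66438968, minus strand) went opposite ways in different forms of ESM1; the first holds the SP-family motif and the second no motif of the list here.
MRPL28: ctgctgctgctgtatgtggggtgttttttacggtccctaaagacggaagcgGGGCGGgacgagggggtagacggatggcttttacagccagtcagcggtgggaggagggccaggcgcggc
MRPL11: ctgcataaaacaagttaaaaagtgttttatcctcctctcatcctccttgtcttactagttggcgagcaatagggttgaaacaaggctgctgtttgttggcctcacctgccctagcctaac
MRPL22 (chr5:154940953-154941072, plus strand), the member at the lowest level, holds the NRF1 motif, read here as its reverse complement. MRPS18A (chr6:43687792-43687911, minus strand), which is named for the small subunit and sits in the large one, holds an SP-family and an ETS-family motif.
MRPL22: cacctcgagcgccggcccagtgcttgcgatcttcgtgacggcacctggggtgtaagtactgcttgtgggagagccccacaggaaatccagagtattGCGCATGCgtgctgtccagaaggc
MRPS18A: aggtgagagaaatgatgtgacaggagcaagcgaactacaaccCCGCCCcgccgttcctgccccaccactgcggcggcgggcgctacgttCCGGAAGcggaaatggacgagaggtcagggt

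**Figure D2:**
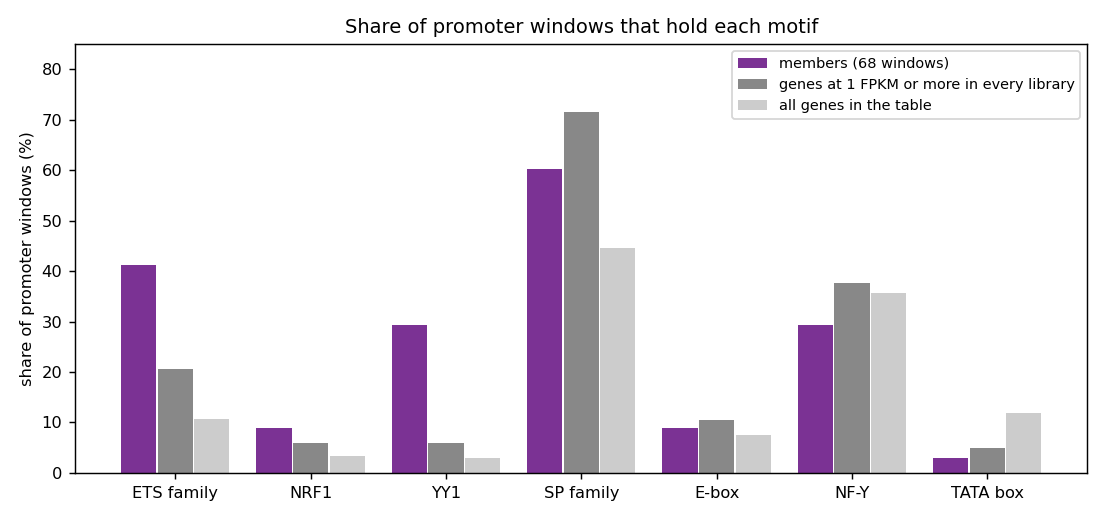
Share of promoter windows (vertical axis, percent) that hold each motif on either strand, for the 68 member windows, genes at 1 FPKM or more in every library, and all genes of the RefSeq table. The ETS-family motif was in 41.2% and the YY1 motif in 29.4% of member windows, against 20.6% and 5.86% of expressed genes.

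Members with and without these motifs differed little in the comparisons below. In ESM1-NES against Vector-2 the median log2 difference was 0.17 with and 0.12 without the ETS motif, and 0.17 with and 0.13 without the YY1 motif. In ESM1-NLS against Vector-2 it was −0.04 with and −0.07 without the ETS motif, and −0.03 with and −0.07 without the YY1 motif. A start of another gene on the other strand, within 1000 bases, was found for 26 of the 68 members (38.2%), against 27.2% of expressed genes. One such pair joins the subunits: MRPL46 and MRPS11 start 320 bases apart on opposite strands of chromosome 15. MRPL46 was at 28.2, 30.7, 28.3, 28.4 and 33.9 FPKM in the 5 libraries, again in the order of the levels above, and MRPS11 at 21.1, 23.2, 26.2, 29.1 and 33.0. Both were highest in ESM1-NES. No source used here says whether the libraries keep strand, so reads from close or overlapping neighbours may not be separable.

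The values below are differences of log2(FPKM + 1), the form minus its control, and ratios are plain ratios of FPKM with exact 95% conditional binomial intervals on reads. The reads of Vector-1 and ESM1 are estimates, so intervals of ESM1 against Vector-1 are approximate. A member was counted as higher when FPKM + 1 in the form was at least 25% above that in the control, and as lower when the control was at least 25% above the form. This limit is called the 25% mark. The members had 300 reads or more each in every library, with a median between 848 and 1535.

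In ESM1 against Vector-1 the members as a whole hardly differed. Their median difference was 0.04, with 50 of 77 above 0, where 52.8% of all 12296 genes tested were above 0 and their median was 0.01. MRPL41 and MRPL38 (2.60%) passed the 25% mark upward and no member passed it downward, against 6.55% and 2.82% of all genes tested. Among the 6715 genes at 10 FPKM or more, a background chosen after the values were seen, these shares were 4.24% and 1.16%. MRPL41 went from 50.5 FPKM in Vector-1 to 66.5 in ESM1, a ratio of 1.32 (1.15 to 1.50). MRPL38, a large-subunit addition related to phosphatidylethanolamine-binding proteins, went from 35.5 to 45.1 FPKM, a ratio of 1.27 (1.16 to 1.40). Next came MRPS14, a small-subunit protein with a bacterial counterpart, at 26.3 and 31.8 FPKM, then MRPL34 at 43.1 and 50.9, and MRPL4 at 64.0 and 75.1. The lowest ratio was that of MRPL19, from 21.2 to 17.8 FPKM, at 0.837 (0.789 to 0.889). It was followed by MRPL30, from 21.0 to 18.1 FPKM (0.861, interval 0.796 to 0.932), and MRPL28, from 59.2 to 52.8 FPKM (0.892, interval 0.811 to 0.981). The intervals of MRPL47 and MRPL33, the next lowest, both reached past 1. Set against Vector-2 of the other table, the member median of ESM1 was −0.05, and Vector-1 itself was −0.12 against Vector-2, where the tables were normalised separately and the medians of all genes were −0.07 and −0.10. Relative to all genes, the members of ESM1 and Vector-1 thus stood 0.02 higher and 0.02 lower than in Vector-2, beside 0.03 higher for ESM1 against its own vector.

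In ESM1-NLS against Vector-2 most members were slightly lower, while genes at large were slightly higher. The member median was −0.07 and 25 of 77 were above 0, where 54.1% of the 13000 genes tested were above 0 and their median was 0.02. No member passed the 25% mark upward and 2 passed it downward (2.60%), against 3.62% and 2.58% of all genes. Among the 6976 genes at 10 FPKM or more these shares were 2.24% and 1.29%. The 2 lower members belong to the large subunit and are among the shortest. MRPL33 stood at 149.5 FPKM in Vector-2 and 111 in ESM1-NLS, a ratio of 0.743 (0.684 to 0.807). MRPL36, the relative of the smallest protein of the bacterial large subunit, stood at 61.9 and 47.9 FPKM, a ratio of 0.773 (0.691 to 0.864). MRPS15 at 0.812, MRPL48 at 0.832 and MRPL57 at 0.835 had the next lowest ratios, with upper bounds of 0.869, 0.904 and 0.910. The highest was MRPS2, a small-subunit protein with a bacterial counterpart, at 48.9 and 59.3 FPKM, a ratio of 1.21 (1.13 to 1.30). MRPL2, whose bacterial relative lies beside the peptidyl transferase centre, followed at 22.3 and 25.5 FPKM (1.14, interval 1.02 to 1.28). MRPS11 and MRPL28 had ratios of 1.11 and MRPL38 of 1.10, all with lower bounds above 1.

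In ESM1-NES against Vector-2 most members were higher, while genes at large were slightly lower. The member median was 0.14 and 60 of 77 were above 0, where 45.8% of the 12902 genes tested were above 0 and their median was −0.03. The 25% mark was passed upward by 12 members (15.6%), against 6.87% of all genes, and downward by MRPL19 alone (1.30%), against 13% of all genes. The 12 depend on the scale: 0 members passed upward in TPM, 1 with the median of each length class subtracted, and 0 with classes of length and GC content. For those scales the shares of all genes past the mark are not given here. Among the 6833 genes at 10 FPKM or more, a background chosen after the values were seen that lies nearer the members' levels, 8.49% were higher and 7.68% lower, with a median of 0.03. MRPS2 led again, at 48.9 FPKM in Vector-2 and 66.6 in ESM1-NES, a ratio of 1.36 (1.27 to 1.46). MRPL55 followed, at 34.3 and 46.2 FPKM (1.35, interval 1.19 to 1.53), and MRPL41, at 109.8 and 146 FPKM (1.33, interval 1.23 to 1.43). MRPL12, the stalk protein of the large subunit that recruits translation factors and has been reported to bind mitochondrial RNA polymerase, was at 112 and 146 FPKM (1.31, interval 1.24 to 1.38). MRPS12, whose bacterial relative lies at the decoding centre, was at 54.2 and 70.5 FPKM (1.30, interval 1.20 to 1.41). MRPL19 went from 17.9 to 12.96 FPKM, a ratio of 0.726 (0.686 to 0.769), and MRPL30 from 18.6 to 15.9 (0.854, interval 0.796 to 0.916). MRPL42 and MRPS30, both at 0.900, had upper bounds below 1, and MRPS31, at 0.895, did not. TPM, which fixes the total of every library, moved the median of all genes by −0.11 here and the member median to 0.02, with 41 of 77 above 0. Relative to all genes the members stood 0.16 higher on both scales.

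In ESM1-NLS against ESM1-NES, libraries of the same table that were compared directly, members were lower with few exceptions. The member median was −0.19 and 7 of 77 were above 0, where 62.2% of the 12915 genes tested were above 0 and their median was 0.06. None passed the 25% mark upward, against 8.8% of all genes, and 17 passed it downward (22.1%), against 3.97%. Among the 6856 genes at 10 FPKM or more these shares were 4.52% and 4.74%. In TPM, with length classes subtracted and with classes of length and GC content, 2 members passed downward in place of 17. The shares of all genes past the mark on those scales are not given here, and TPM moved the median of all genes by 0.13. Relative to all genes the members stood 0.26 lower in FPKM and in TPM, although on the TPM scale their own median was −0.06 and 27 were above 0. The lowest ratios were those of short large-subunit genes: MRPL41 at 103 FPKM in ESM1-NLS and 146 in ESM1-NES (0.704, interval 0.650 to 0.763), MRPL54 at 35.9 and 50.5 (0.710, interval 0.621 to 0.812) and MRPL36 at 47.9 and 64.6 (0.740, interval 0.658 to 0.833). MRPL57 and MRPS17 followed at 0.757 and 0.764. MRPS25 and MRPL19, the longest members of their subunits, were the highest, with ratios of 1.17 each and lower bounds of 1.09 and 1.10. MRPS30 at 1.12 and MRPL42 at 1.09 also had lower bounds above 1, and the interval of MRPS31, at 1.08, spanned 1.

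**Figure D3:**
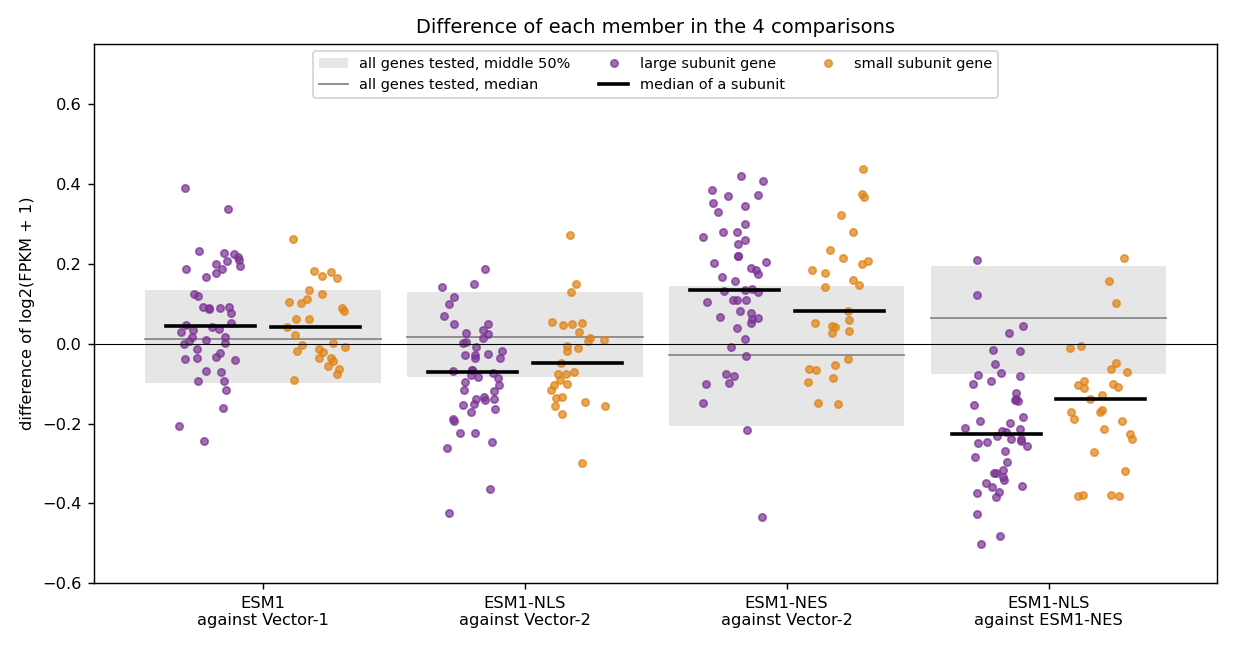
Difference of log2(FPKM + 1) (vertical axis) of each large-subunit and small-subunit gene in the 4 comparisons, with the median of each subunit as a black bar and the middle 50% and median of all genes tested in grey. Member medians were 0.04, −0.07, 0.14 and −0.19 from left to right, and the subunits overlap throughout.

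The medians of the subunits lay close together in all comparisons. The large-subunit median was 0.04 and the small-subunit median 0.04 in ESM1 against Vector-1, −0.07 and −0.05 in ESM1-NLS against Vector-2, 0.14 and 0.08 in ESM1-NES against Vector-2, and −0.23 and −0.14 in ESM1-NLS against ESM1-NES. The large subunit thus differed from the small one by 0.00, −0.02, 0.05 and −0.09, each less than the range between the quartiles of either subunit. In ESM1-NES against Vector-2, 39 of 48 large-subunit and 21 of 29 small-subunit genes were above 0. The 25% mark was passed upward by 8 (16.7%) and 4 (13.8%), against 6.87% of all genes. In ESM1-NLS against ESM1-NES, 4 and 3 were above 0. The mark was passed downward by 13 (27.1%) and 4 (13.8%), against 3.97% of all genes. These counts depend on the scale. Over all members, 0 passed upward in ESM1-NES in TPM and 1 with length classes subtracted. In ESM1-NLS against ESM1-NES, 2 passed downward on either scale. The subunits had median lengths of 1046 and 1265 bases, and the part of length in 13 against 4 was not tested. Placed by the known structure, MRPS30 and MRPS18A belong to the large subunit and MRPS36, now known as part of the 2-oxoglutarate dehydrogenase complex, to neither. The split was then 50 large and 26 small, and the differences between subunits were −0.01, −0.01, 0.06 and −0.09.

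The members were also split by evolutionary origin within each subunit, as placed by structure. In ESM1-NES against Vector-2, the 17 small-subunit genes with a bacterial counterpart had a median of 0.18, with 14 above 0, and the 9 small-subunit additions a median of 0.04, with 5 above 0. In the large subunit the medians were 0.14 for both the 31 genes with a counterpart and the 19 additions. In ESM1-NLS against ESM1-NES, 0 of the 17 small-subunit genes with a counterpart were above 0 (median −0.17), beside 2 of the 9 additions (median −0.06), and the large-subunit medians were −0.23 and −0.21. In ESM1 against Vector-1 the medians were 0.06 and −0.01 in the small subunit and, in the other order, 0.02 and 0.08 in the large one. In ESM1-NLS against Vector-2 they were −0.07 and −0.05 in the small and −0.07 and −0.04 in the large subunit. Which origin stood higher thus varied with the subunit and the comparison, and none of these differences has a test.

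Among the members, gene length went with the differences mainly in the comparisons that involve ESM1-NES. Effective lengths, derived from the deposited FPKM and expected counts, had a median of 1107 bases over the members (1046 in the large and 1265 in the small subunit) and 2846 over all genes tested. The shortest members were MRPL33 at 420 bases, MRPS17 at 509 and MRPL41 at 528, and the longest MRPL19 at 7771, MRPS25 at 4501 and MRPL30 at 4428. There was 1 member up to 500 bases, 30 from 500 to 1000, 33 from 1000 to 2000, 10 from 2000 to 4000 and 3 above. In ESM1-NES against Vector-2 the median over all genes of 500 to 1000 bases was 0.17 and that of the members of that class was 0.19. The class of 1000 to 2000 bases had 0.11 and its members 0.14, that of 2000 to 4000 bases had −0.01 and its members −0.01, and that over 4000 bases −0.22 and its members −0.22. The members of each class from 500 bases up thus stood within 0.03 of all genes of their length in ESM1-NES. In ESM1-NLS against Vector-2 they stood lower than their class: −0.08 against −0.03 at 500 to 1000 bases, −0.02 against 0.04 at 1000 to 2000, and −0.10 against 0.05 at 2000 to 4000, where 0 of 10 members lay above the class median.

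**Figure D4:**
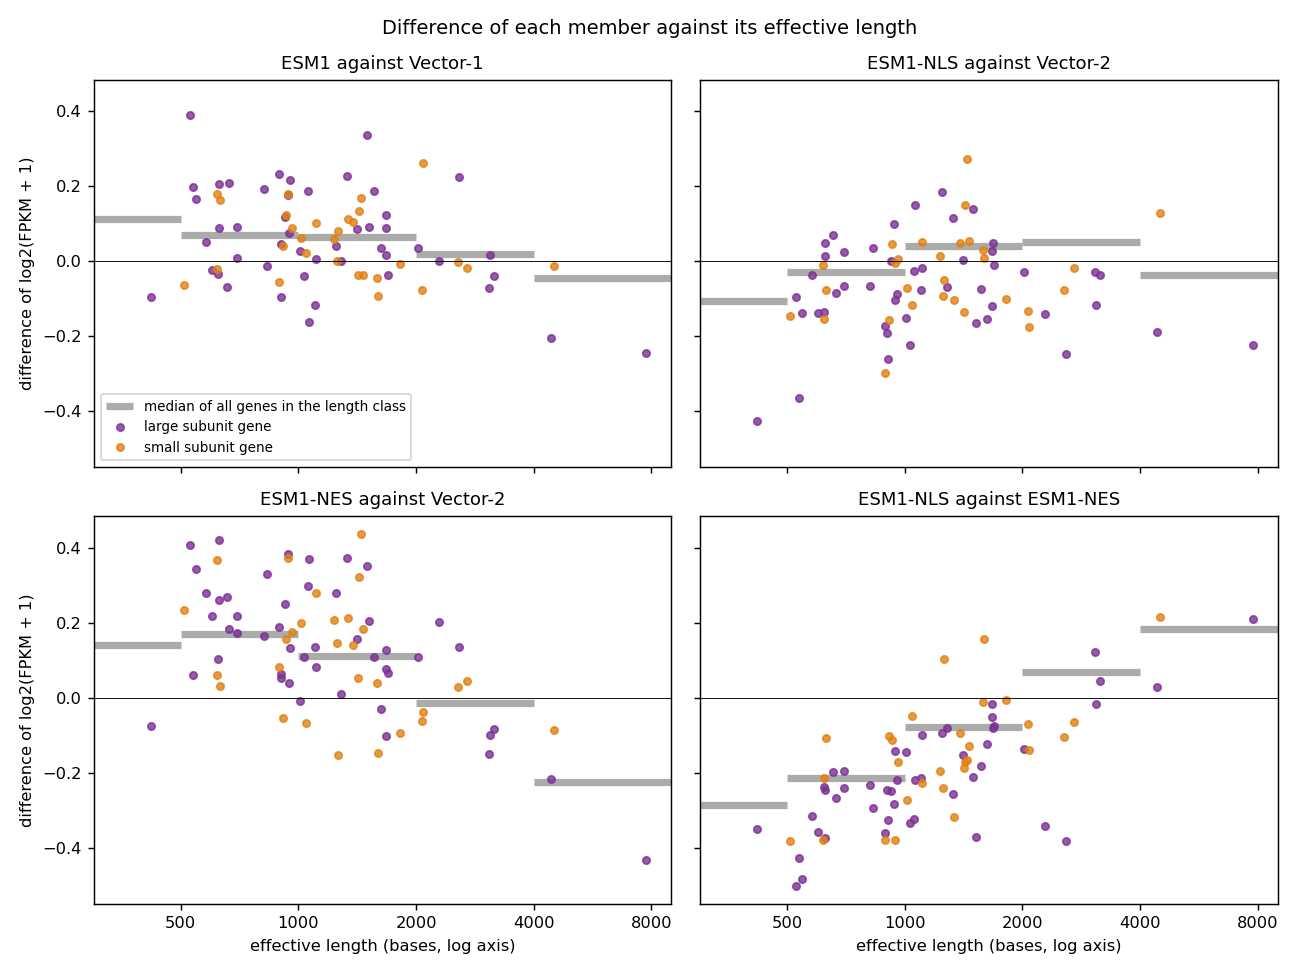
Difference of log2(FPKM + 1) (vertical axis) of each member against its effective length in bases (horizontal log axis) in the 4 comparisons, with grey bars for the median of all genes tested in each length class. In ESM1-NES against Vector-2 the grey bars run from 0.17 at 500 to 1000 bases to −0.22 over 4000 bases and the members lie around them.

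With the median of its length class subtracted from each member, the member median was −0.01 in ESM1 against Vector-1 (36 of 77 above 0), −0.07 in ESM1-NLS against Vector-2 (22 above 0), 0.02 in ESM1-NES against Vector-2 (43 above 0) and −0.07 in ESM1-NLS against ESM1-NES (18 above 0). The median of the first comparison thereby changed sign, and that of ESM1-NES came near 0. The lower level of the members in ESM1-NLS was as large as before. The difference between the subunits in ESM1-NLS against ESM1-NES went from −0.09 to 0.03. With classes of length and of GC content of the transcript together, the 4 member medians were 0.01, −0.04, 0.04 and −0.08, with 43, 20, 49 and 17 members above 0. The member that stood lowest for its length and GC content in ESM1-NLS against Vector-2 was MRPL36, at −0.36, and the highest MRPL2, at 0.13. In ESM1-NES against Vector-2 these were MRPL43, at −0.18, and MRPL57, at 0.23.

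Across the 77 members, Spearman's rho of the difference with effective length was −0.21 in ESM1 against Vector-1, 0.11 in ESM1-NLS against Vector-2, −0.46 in ESM1-NES against Vector-2 and 0.67 in ESM1-NLS against ESM1-NES. With GC content it was 0.51, 0.46, 0.75 and −0.45. Over all genes with a GC value, rho with length was −0.27, −0.17, −0.59 and 0.58 and rho with GC content 0.32, 0.53, 0.64 and −0.37 in the same order. The members thus followed the relations of all genes, except for length in ESM1-NLS against Vector-2, where the sign was opposite. Genes are not independent replicates, and all points of a comparison share its 2 libraries. Level went with length too: within each library rho of FPKM with effective length lay between −0.55 and −0.43. The part of library preparation or RNA quality in these relations was not tested.

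Set side by side in FPKM, 18 members (23.4%) were above 0 and 7 (9.09%) below 0 in all 3 comparisons of a form with its vector, where 24% and 22.1% of the 12118 genes tested in all 3 were. The share above 0 was thus near that of genes at large. Among those above were MRPS2, MRPL12, MRPL38, MRPL4, MRPL55, MRPS34 and MRPS18A, and those below were MRPL19, MRPL30, MRPL33, MRPL35, MRPL42, MRPS10 and MRPS35. MRPL4, whose bacterial relative lines the exit tunnel, was at 64.0 FPKM in Vector-1, 75.1 in ESM1, 67.7 in Vector-2, and 73.5 in ESM1-NLS and 88.0 in ESM1-NES. The commonest pattern of the tagged forms, which share Vector-2, was below 0 in ESM1-NLS and above 0 in ESM1-NES. It was seen in 37 members (48.1%, against 11% of all genes), and the opposite in MRPS25 and MRPS30 (2.60%, against 19%). These shares of all genes are not matched for length. All genes of 500 to 1000 bases had medians of −0.03 in ESM1-NLS and 0.17 in ESM1-NES, each against Vector-2. The pattern also depends on the scale, as 41 members were above 0 in ESM1-NES in TPM and 60 in FPKM. MRPS25 was at 15.8 FPKM in Vector-2, and 17.3 in ESM1-NLS and 14.8 in ESM1-NES. Between ESM1 and the tagged forms, which share no library, rho of the differences across the 77 members was 0.48 for ESM1-NES and 0.18 for ESM1-NLS. The same rho over all genes was not computed. Across the members the differences also had rho of 0.51, 0.46 and 0.75 with GC content in ESM1, ESM1-NLS and ESM1-NES. The part of GC content or length in the agreement between forms was not tested.

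For 10 members (12.99%) the intervals of 2 forms lay on opposite sides of 1. This was so for 8.92% of all genes and for 11.3% of the 7820 with at least as many reads in every library as the lowest member, so the share of members is near that of genes read as deeply. For 8 of them (10.4%) the ratios were also at least 1.1-fold from 1 both ways, against 5.2% of all genes and 5.55% of those read as deeply, a background chosen after the values were seen. MRPL57, a large-subunit addition, was at 17.1 FPKM in Vector-1 and 20.2 in ESM1, and at 21.0 in Vector-2, and 17.5 in ESM1-NLS and 23.2 in ESM1-NES. It was thus higher than the vector in ESM1 (1.18, interval 1.06 to 1.31) and in ESM1-NES (1.10, interval 1.02 to 1.20) and lower in ESM1-NLS (0.835, interval 0.767 to 0.910). MRPS14 was higher in ESM1 (1.21, interval 1.10 to 1.33) and lower in ESM1-NLS (0.882, interval 0.820 to 0.948). MRPL28 was the reverse, lower in ESM1 (0.892) and higher in ESM1-NLS (1.11) and ESM1-NES (1.30), with 56.5 FPKM in Vector-2, and 62.9 in ESM1-NLS and 73.4 in ESM1-NES. MRPL34 was higher in ESM1 and ESM1-NES, at ratios of 1.18 and 1.14, and lower in ESM1-NLS at 0.886, and MRPS7 had 1.08, 1.16 and 0.929. MRPL11, of the stalk base, was at 53.5 FPKM in Vector-2, and 47.6 in ESM1-NLS and 61.8 in ESM1-NES. MRPL13, MRPL17, MRPL51 and MRPS17 had the same order, with ratios of 1.08 to 1.18 in ESM1-NES and 0.854 to 0.909 in ESM1-NLS. The differences between forms themselves have no test.

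Members with roles of their own differed in how far they varied between libraries. The paralogues MRPS18A, MRPS18B and MRPS18C descend from 1 bacterial protein, and the first sits in the large subunit. MRPS18A was at 32.1 FPKM in Vector-1, 34.5 in ESM1, 42.9 in Vector-2, and 44.5 in ESM1-NLS and 52.2 in ESM1-NES. MRPS18B was the most abundant of them, at 78.0, 76.1, 87.9, 91.4 and 99.99, and MRPS18C the least, at 27.4, 28.6, 25.2, 23.96 and 29.1. All 3 were highest in ESM1-NES, and the highest library was 1.63, 1.31 and 1.22 times the lowest. For MRPS18A and MRPS18B that ratio spans the 2 tables, where a step cannot be told apart from scaling. Within a table MRPS18A had ratios of 1.08 for ESM1 over Vector-1 and 1.22 for ESM1-NES over Vector-2. MRPL45, which binds the large subunit to the inner membrane at the tunnel exit, was at 37.7, 38.7, 47.7, 42.8 and 46.7 FPKM. MRPL44 ranged from 30.4 to 32.1 FPKM over all libraries, and MRPS36 from 25.1 to 29.8. MRPS30, of the large subunit by structure, was at 30.9, 28.9, 33.5, 33.7 and 30.1, and its differences of −0.09, 0.01 and −0.15 left it among the lowest members in ESM1-NES.

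Other genes of mitochondrial translation were read from lists, described by counts and medians only. Mitoribosomal proteins under other symbols, 6 in all (DAP3, ICT1, AURKAIP1, CHCHD1, PTCD3 and GADD45GIP1), had medians of 0.18 in ESM1, of 0.01 in ESM1-NLS, of 0.11 in ESM1-NES and −0.21 between ESM1-NLS and ESM1-NES, with 5, 3, 5 and 2 of 6 above 0. AURKAIP1, a small-subunit protein, was at 85.9, 106, 109, 117 and 135 FPKM in the 5 libraries. CHCHD1, also of the small subunit, was at 56.0, 60.6, 61.7, 52.8 and 65.1. The 17 translation factors stayed near 0, with medians of −0.02, −0.00, −0.01 and 0.01, and held genes at both ends. Among them SLIRP, which stabilises mitochondrial mRNA together with LRPPRC, was at 159, 176, 157, 136 and 189 FPKM, with a difference of 0.27 for ESM1-NES from Vector-2 and −0.47 for ESM1-NLS from ESM1-NES. PDF, the peptide deformylase, was at 8.98 FPKM in Vector-2, and 8.69 in ESM1-NLS and 11.7 in ESM1-NES. GUF1, a GTPase that binds the mitochondrial ribosome, was at 17.2, 15.6 and 12.9 in those libraries, a difference of −0.39 in ESM1-NES. SLIRP is short and GUF1 long, at 332 and 4149 bases of effective length. All genes up to 500 bases had medians of 0.14 in ESM1-NES against Vector-2 and −0.29 in ESM1-NLS against ESM1-NES. Those over 4000 bases had −0.22 in ESM1-NES against Vector-2, and the part of length was not tested.

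The 29 genes of mitoribosome assembly and RNA modification had medians of 0.08, 0.05, 0.07 and −0.01. Above 0 were 23, 21, 21 and 12 of them (79.3%, 72.4%, 72.4% and 41.4%), against 52.8%, 54.1%, 45.8% and 62.2% of all genes tested. Unlike the members they were not lower in ESM1-NLS, but they are not matched to the members in length. Their effective lengths ran from 679 bases (MALSU1) to 7474 (GTPBP10). In ESM1-NLS against Vector-2 all genes of 1000 to 2000 and of 2000 to 4000 bases had medians of 0.04 and 0.05. MPV17L2, an assembly factor of the inner membrane, was at 15.3 FPKM in Vector-1, 19.5 in ESM1, 23.3 in Vector-2, and 28.9 in ESM1-NLS and 33.5 in ESM1-NES, the largest difference of this list in ESM1-NES at 0.50. YBEY, a ribonuclease, was at 6.62, 9.10, 6.05, 8.21 and 7, with 0.41 in ESM1 and 0.39 in ESM1-NLS. The 17 mitochondrial aminoacyl-tRNA synthetases had medians of 0.06, 0.11, 0.03 and 0.04, with 14, 13, 10 and 11 above 0. Their effective lengths ran from 1759 bases (RARS2) to 4718 (AARS2), all above the members' median length. SARS2, the seryl enzyme, whose start lies 181 bases from that of MRPS12 on the other strand, was at 13.8, 18.7, 11.1, 13.1 and 14.4 FPKM. VARS2, the valyl enzyme, was at 7.73, 10.04, 9.31, 12.1 and 12.9, with 0.34, 0.34 and 0.43 in the 3 forms.

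The list of mitochondrial DNA transcription and its nuclear regulators held 16 tested genes, with medians of −0.02, 0.02, −0.05 and 0.11. It names factors that bind the motifs searched above. GABPA, the ETS subunit of GABP, was at 19.9 FPKM in Vector-1, 16.8 in ESM1, 14.3 in Vector-2, and 14.3 in ESM1-NLS and 10.7 in ESM1-NES, and YY1 at 45.6, 41.1, 38.2, 39.1 and 33.7. NRF1 was at 8.47, 8.43, 7.26, 7.25 and 7.76. PPARGC1B, a coactivator of mitochondrial biogenesis, was at 3.34, 2.48, 3.81, 3.21 and 2.54, with −0.32, −0.19 and −0.44 in the 3 forms. GABPA and PPARGC1B are long, at 4827 and 10553 bases of effective length. All genes over 4000 bases had a median of −0.22 in ESM1-NES against Vector-2, and the part of length was not tested. POLRMT, the mitochondrial RNA polymerase, was at 17.8, 20.4, 19.7, 24.7 and 23.4. Genes of mitochondrial content, 12 in all, had medians of −0.00, −0.02, 0.10 and −0.07, and within them COX4I1, a subunit of cytochrome c oxidase, was at 432, 456, 534, 513 and 649.5 FPKM.

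**Figure D5:**
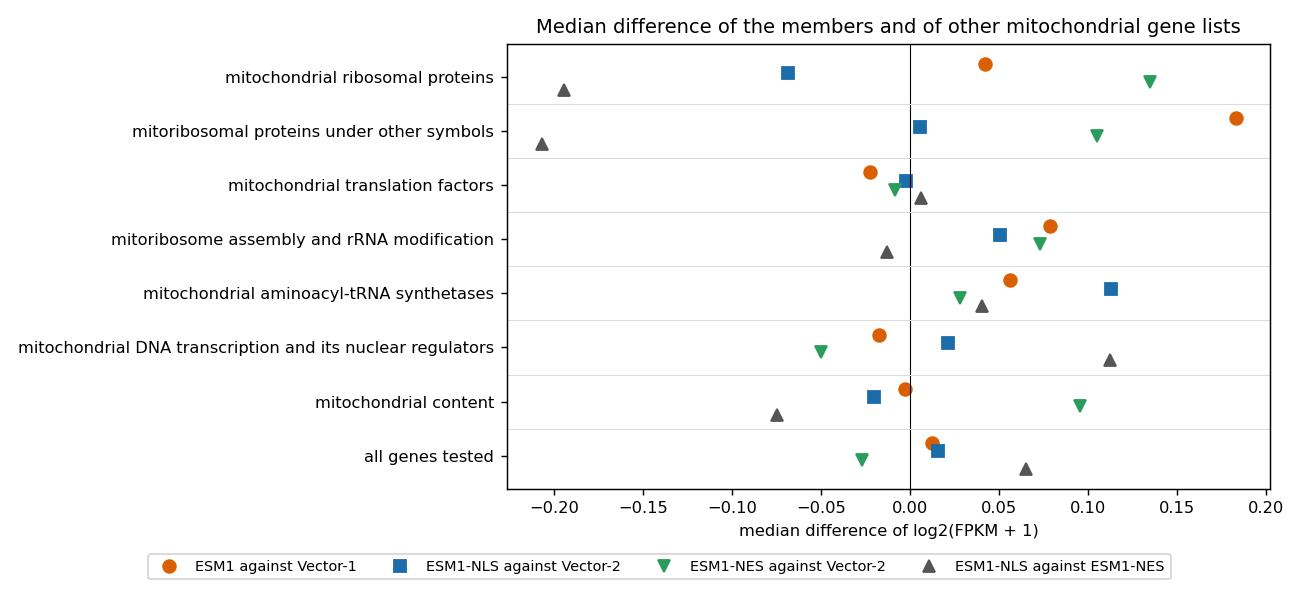
Median difference of log2(FPKM + 1) (horizontal axis) of the 77 members, of 6 lists of other mitochondrial genes and of all genes tested (rows), with 1 symbol per comparison. In ESM1-NLS against ESM1-NES the members stand at −0.19 and the mitoribosomal proteins under other symbols at −0.21. The assembly and aminoacyl-tRNA synthetase lists stand at −0.01 and 0.04 there. The lists are not matched to the members in gene length, and no length class was subtracted.

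The authors' deposited table gives a fold change of its own for each tagged form over the vector. In the authors' deposited table the median over the 77 members was 1.14 for ESM1-NES, from 0.753 (MRPL19) to 1.40 (MRPS2), with 14 below 1, where the median over all its genes was 0.985. For ESM1-NLS the authors' deposited table had a median of 0.938, from 0.727 (MRPL33) to 1.19 (MRPS2), with 58 below 1, where the median over all its genes was 0.997. The score named PPEE in the authors' deposited table was lowest at 0.979 (MRPS2) for ESM1-NES and 0.652 (MRPL33) for ESM1-NLS, so that 0 members were below 0.05, where 116 of 20056 and 120 of 20282 genes were.

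Pseudogenes limit how firmly some values can be read. In the reference annotation, 34 of the 77 members have at least 1 pseudogene named after them, 75 in all, and reads could be shared with near-identical copies. Of these, only MRPL45P2 and MRPS31P5 have values of their own in the tables, between 1.75 and 2.72 FPKM and between 2.87 and 4.62 FPKM. The 43 members without a named pseudogene had medians of 0.09 in ESM1, of −0.07 in ESM1-NLS, of 0.16 in ESM1-NES and of −0.24 between ESM1-NLS and ESM1-NES, and the 34 with one had 0.03, −0.07, 0.10 and −0.15.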

How the data were processed

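RNA from 5 libraries of 22Rv1 cells, 1 per group, was analysed from 2 tables with the same symbols. The submitters' processing notes name Trimmomatic, Bowtie2, RSEM and the build hg19, with no versions. Expected counts, TPM and FPKM are deposited for Vector-2 and both tagged forms, with the authors' fold change ratio and PPEE score, per the file headers. The deposited table of Vector-1 and ESM1 names no unit and was taken as FPKM, because its values, multiplied by effective length, summed to 0.993 and 0.991 of a full library. Its depth was estimated by scaling low values until they lay nearest to whole reads: 87.2% of 141 values in Vector-1 and 84.9% of 146 in ESM1 lay within 0.15 reads of a whole number (at most 77.6% and 80.5% at other factors), so reads there are estimates. For intervals, expected counts were rounded.

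Differences used log2(FPKM + 1), which understates changes of low genes, over genes whose mean reached 1 FPKM. With 1 library per group no test was possible. GC content (98.1% of genes) and pseudogene names came from GENCODE 29 and promoters from RefSeq, both on GRCh38. Members named individually were the 6 highest and 6 lowest by level, the 5 at either end of each comparison, the 3 longest and 3 shortest, 8 chosen for their roles, those with intervals on opposite sides of 1, and list genes with the largest differences. NRF1, YY1, POLRMT, CHCHD1 and the neighbours MRPL46 and SARS2 were named after their values were seen where the rule does not cover them. The members and lists were chosen with earlier results of these data known. Alternatives were other pseudocounts (0.1 and 5), filters, TPM, expected counts scaled to library totals, centring, length and GC classes, added members and another control. The log2 difference, the subtraction of length classes and the ratio interval were tested on simulated data that held counting error only. Python 3.11.15, numpy 2.4.6, pandas 2.3.3 and SciPy 1.17.1 were used.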

Additional observations from a re-analysis of the deposited data

Results flagged for a closer look

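The members' medians of the tagged forms differed: the median of ESM1-NES was higher than that of ESM1-NLS by 0.204 on the log2(FPKM + 1) scale, each against Vector-2, with opposite signs. The same difference was 0.0729 in TPM and 0.0896 with the median of each length class subtracted. For 8 members, ratios in 2 forms were at least 1.1-fold from 1 in opposite directions with intervals on opposite sides of 1, in 11 pairs of comparisons. These are 10.4% of the members, where 5.2% of the 12118 genes tested in all 3 comparisons met the same limits, and 5.55% of those with at least as many reads as the lowest member. On the log2 scale of the ratios, ESM1-NES stood above ESM1-NLS by 0.402 for MRPL57, 0.388 for MRPS17, 0.377 for MRPL11, 0.365 for MRPL34, 0.358 for MRPL51 and 0.351 for MRPL17. ESM1 stood above ESM1-NLS by 0.497 for MRPL57, 0.452 for MRPS14 and 0.411 for MRPL34. For MRPL28, ESM1-NLS stood above ESM1 by 0.317 and ESM1-NES above ESM1 by 0.540. None of these differences was tested, each form has 1 library, and the tagged forms share Vector-2.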

How the results depend on the processing

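With 1 library per group, no replicate could be left out. No paired analysis was possible because each group has a single library. The member median of ESM1-NLS against Vector-2 and the large-minus-small difference in that comparison kept their direction under the alternatives tried. The large-minus-small difference in ESM1-NES against Vector-2 (0.053) was −0.016 with length classes subtracted and above 0 otherwise. That of ESM1 against Vector-1 (0.0021) was −0.0062 with length classes subtracted, −0.012 with members under other symbols added and −0.0071 with subunits placed by structure. The large-minus-small difference in ESM1-NLS against ESM1-NES (−0.09) was 0.026 with length classes subtracted. The member median of ESM1 against Vector-1 (0.04) was −0.0051 with length classes subtracted, −0.048 with Vector-2 as control and 0.091 over members without a named pseudogene, an alternative chosen after seeing the data. That of ESM1-NES against Vector-2 (0.14) was 0.016 in TPM, 0.016 with length classes and 0.041 with length and GC classes subtracted. That of ESM1-NLS against ESM1-NES (−0.19) was −0.063 in TPM, −0.26 when centred on all genes, −0.075 with length classes and −0.080 with length and GC classes.

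Counts past the 25% mark moved as follows. The shares of all genes past the mark under these alternatives are not given here, so the moved counts have no background. Higher members in ESM1 went from 2 to 1 with a pseudocount of 5 and to 0 with length or length and GC classes. Higher members in ESM1-NES went from 12 to 0 in TPM, 1 with length classes and 0 with length and GC classes, and lower ones from 1 to 2, 0 and 0. Lower members in ESM1-NLS against ESM1-NES went from 17 to 2 in TPM, with length classes and with length and GC classes, and higher ones from 0 to 2 in TPM. Lower members in ESM1-NLS against Vector-2 went from 2 to 1 with length classes and with length and GC classes. TPM rescales each library as a whole, and class subtraction removes what genes of the same length or GC content share. Any other cause was not tested.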
